A study of Arabidopsis thaliana with 6 samples.

Results

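A group of 29 Arabidopsis genes was abundant in whole root meristems and much lower in cells sorted from roots for a G2/M reporter. They were chosen on the measured values. Each had a log2 level of at least 7 on all 3 meristem arrays, and on every sorted array its level lay at least 2.5 log2 below its meristem mean. Of 13356 genes with a probe set of their own, 2146 met the level limit and 39 met both limits. Of these 39, 10 were left out because they belong to families or markers set aside by the choice (peroxidases, a xyloglucan endotransglucosylase, a subtilase, SKU5-similar genes, lectins of 1 cluster and the cortex marker PEP). The other 29 are described here beside 2107 comparison genes, which met the level limit and not the limit on the difference.

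The first group was 3 samples of G2/M cells, isolated by FACS (fluorescence-activated cell sorting) from roots that express the CYCB1;1-GFP reporter. The second was 3 samples of complete root meristems, cut out under a binocular microscope, for which the labels name no reporter. All plants were of the accession Col-0 and grew on vertical plates, without a treatment or a stated age. Each RNA sample was measured on 1 Affymetrix ATH1 array. The cyclin CYCB1;1, of the B type, builds up as cells approach mitosis, so its reporter marks cells in that window. The starting material also differed, roots for the sort and meristems for the dissection. Cycle stage, tissue and handling therefore cannot be told apart in the difference between the groups. In bulk RNA, fewer cells of a type and less RNA per cell cannot be told apart either.

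The root meristem is the growing zone behind the root tip. Its inner layers, ground tissue, epidermis and surrounding root cap each hold cells at all stages of the cell cycle, and some of the tip's cells, such as those of the outer root cap, have stopped dividing. A whole meristem therefore carries the transcripts of every one of these layers and stages at once. A sort for a mitotic cyclin is meant to take cells by their cycle stage, from whichever layers hold them.

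The values are log2 levels from GCRMA, which corrects background, normalizes across arrays and gives 1 value per probe set. The lowest value on every array was 2.27, called the floor here, and a value within 0.5 of it is called near the floor. Pearson's r across 22746 probe sets lay between 0.967 and 0.989 within the sorted arrays, between 0.996 and 0.997 within the meristems and between 0.952 and 0.966 across the groups. Of 52 listed marker genes, 11 had a probe set that the annotation used here names for that gene alone, called measured below. It left 8730 probe sets unnamed and named several genes for 503, so the array may also hold the other listed genes. Of 13 listed G2/M genes 5 were measured (AUR1, AUR2, AUR3, BUBR1 and SCL28), and the reporter's own gene CYCB1;1 was not. All 5 were higher on each sorted array than on any meristem array. The list was made with earlier results of these data known, so this is no independent check of the sort. The 3' minus 5' difference of the GAPDH control probe sets was 1.09, 1.14 and 1.12 log2 in sorted replicates 1, 2 and 3, against 1.06, 1.16 and 1.00 log2 in meristem replicates 1, 2 and 3, so it overlapped between the groups. For ubiquitin it was 1.08, 1.17 and 1.20 log2 in the sorted replicates and 0.98, 0.87 and 0.78 log2 in the meristems, and these did not overlap. For actin it was between 4.72 and 5.03 log2 in the sorted replicates and between 4.94 and 5.22 log2 in the meristems, with overlap. The part of this difference in the results was not tested.

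On the meristem arrays the 29 genes had high levels, as their choice required, and on the sorted arrays their ranks were lower. Their sorted means had a median of 4.69 and their meristem means a median of 8.65 (log2). Ranked among all 13356 genes, the median gene of the 29 stood at percentile 61.2 in the sorted cells and at percentile 93.1 in the meristems. The difference, sorted minus meristem, had a median of -3.79 and ran between -6.03 and -3.003 log2 as measured. The lower end is that of AT3G19430, with 1 sorted value near the floor, and without the 5 such genes it is -5.86 log2. Among the 2107 comparison genes its median was -0.01 log2, and 92.1% of them lay within 1 log2 of 0. The meristem levels and these differences chose the genes, so the levels, ranks and differences are a description and carry no test.

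**Figure D1:**
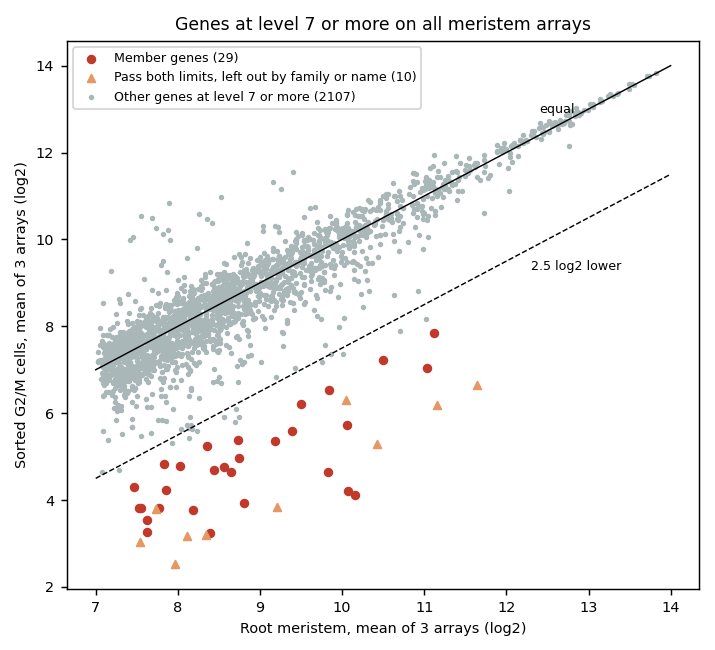
Each point is 1 gene with a level of at least 7 on all 3 meristem arrays, with its mean over the 3 sorted G2/M arrays on the vertical axis and its mean over the 3 meristem arrays on the horizontal axis (log2). The 29 member genes (red) lie below the dashed line of 2.5 log2, as their choice requires, with the 10 genes left out by family or name (orange) among them, while 92.1% of the 2107 comparison genes (grey) lie within 1 log2 of the line of equal levels.

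Most of the transcripts were low in the sorted cells and still above the floor there. None of the 29 was near the floor on all 3 sorted arrays, and 24 of them were near it on none. The other 5 (AT3G19430, AT1G50060, AT2G14900, AT4G27400 and AT2G37540) were near the floor in sorted replicate 2 alone. The table holds no detection calls, so a value above the floor is a measured level and no proof of the transcript. In the sort 4 genes still reached a level of 7 on some sorted array. Over the 24 genes with no value near the floor, sorted levels were between 8.02-fold and 58.2-fold below those of the meristems, with a median of 13.4-fold. No fold is given for the other 5, since a value near the floor is a background level.

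The tables at hand name 28 of the 29 by their locus code alone, so no function is stated for these 28. MSRB5 (AT4G04830) is the exception. It belongs to the methionine sulfoxide reductases of type B, enzymes that return oxidised methionine in proteins to methionine. MSRB5 had 5.70, 3.51 and 5.07 in sorted replicates 1, 2 and 3, against 8.36, 8.47 and 8.85 in meristem replicates 1, 2 and 3. The groups did not overlap, and the lowest value was that of sorted replicate 2. The means were 4.76 ± 1.13 in sorted cells, against 8.56 ± 0.26 in meristems (SD, n = 3 each), a difference of -3.80 log2 or 13.9-fold lower in the sorted cells.

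The 4 other genes that the annotation names as methionine sulfoxide reductases had smaller differences. Further genes of this family may lie on unnamed or shared probe sets, so the family is covered in part only. MSRB9 averaged 11.36 ± 0.26 in sorted cells, against 11.06 ± 0.13 in meristems. MSRB3, which lies 3 genes from MSRB5 in gene order, averaged 6.05 ± 0.06 in sorted cells, against 5.92 ± 0.15 in meristems. Both differences are small and positive (0.30 and 0.13 log2). MSRB6 averaged 3.24 ± 0.82 in the sorted cells and was near the floor on all 3 meristem arrays (2.67 ± 0.05). MSRA5, an enzyme of the type that acts on the other stereoisomer of oxidised methionine, averaged 7.58 ± 0.19 in sorted cells, against 8.20 ± 0.01 in meristems, a difference of -0.62 log2 (SD, n = 3 each for all 4 genes). MSRB5 was chosen for its difference, and the meristem level of MSRB6 leaves no room for one of that size.

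The lowest measured difference was that of AT3G19430, whose size is a bound because 1 sorted value is near the floor. It had 5.16, 2.61 and 4.60 in sorted replicates 1, 2 and 3, against 10.14, 10.61 and 9.71 in meristem replicates 1, 2 and 3. Its smallest gap between a sorted value and the meristem mean was 4.99 log2. AT5G60530 had the lowest difference among the genes with no value near the floor (-5.86 log2), with 5.22, 2.96 and 4.45 in the sorted replicates and 10.14, 10.37 and 9.71 in the meristems. The means of AT5G60530 were 4.21 ± 1.15 in sorted cells, against 10.07 ± 0.34 in meristems (SD, n = 3 each), 58.2-fold lower in the sorted cells. In both genes sorted replicate 2 was the lowest array by more than 1 log2, while sorted replicates 1 and 3 lay within 1 log2 of each other.

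In 3 further genes the mean difference was past 4.5 log2. For AT1G50060 and AT2G14900 its size is a bound, since sorted replicate 2 was near the floor. AT1G50060 had 5.94, 2.44 and 5.57 in sorted replicates 1, 2 and 3, against 9.70, 10.30 and 9.48 in meristem replicates 1, 2 and 3. Its sorted range of 3.5 log2 was the widest of all 29 genes. AT3G06460 had 3.59, 3.03 and 3.14 in the sorted replicates and 8.63, 8.67 and 7.89 in the meristems. It was the lowest of the 29 in the sorted cells by its mean (3.25 ± 0.30), with the 3 arrays close together, against 8.40 ± 0.44 in the meristems (SD, n = 3 each), a 35.3-fold lower level. Its sorted values lay under the median of all probe sets on each sorted array (3.79, 3.61 and 3.71), so this fold may be a bound as well. AT2G14900 had 4.40, 2.28 and 5.14 in the sorted replicates and 8.99, 8.65 and 8.79 in the meristems. Its sorted replicates 1 and 3 lay within 1 log2 of each other and at least 2.12 log2 above replicate 2.

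**Figure D2:**
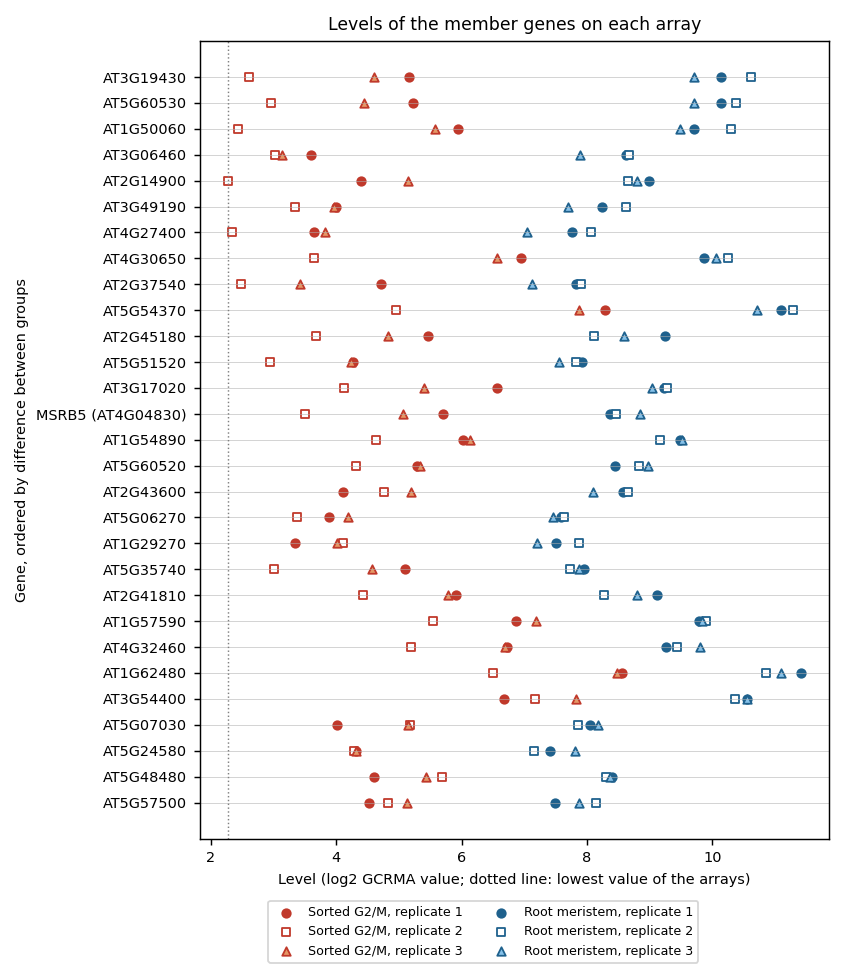
The level of each of the 29 genes (log2, horizontal axis) is shown on the 3 sorted G2/M arrays (red) and the 3 root meristem arrays (blue), with 1 symbol shape per replicate and genes ordered by their difference, which runs as measured between -6.03 for AT3G19430 (with 1 sorted value near the floor) and -3.003 for AT5G57500. The red points are spread more widely than the blue ones, with the open squares of sorted replicate 2 at the left end in 23 of 29 genes.

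The 3 genes highest in the meristems, AT1G62480, AT5G54370 and AT3G54400, were not the ones with the largest differences. AT3G19430 and AT5G60530, which had the largest measured differences, came next by meristem mean (10.15 and 10.07). AT1G62480 had the highest meristem mean. Its levels were 8.56, 6.5 and 8.48 in sorted replicates 1, 2 and 3, against 11.41, 10.85 and 11.10 in meristem replicates 1, 2 and 3. At 7.85 ± 1.17 in sorted cells, against 11.12 ± 0.28 in meristems (SD, n = 3 each), it was 9.67-fold lower and still at percentile 89.0 of all genes in the sorted cells. AT5G54370 had 8.28, 4.95 and 7.88 in the sorted replicates and 11.09, 11.29 and 10.71 in the meristems. Both genes thus kept levels above 7 in sorted replicates 1 and 3 and were under 7 in sorted replicate 2.

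AT3G54400 followed in meristem level with another profile in the sort. It had 6.67, 7.17 and 7.83 in sorted replicates 1, 2 and 3, against 10.56, 10.36 and 10.56 in meristem replicates 1, 2 and 3, and its lowest array was sorted replicate 1. AT4G30650 had 6.94, 3.65 and 6.56 in the sorted replicates and 9.87, 10.25 and 10.06 in the meristems. Between its sorted replicates 1 and 2 lay 3.29 log2, while the 3 meristems lay within 0.38 log2. AT1G57590 had 6.87, 5.54 and 7.19 in the sorted replicates and 9.78, 9.90 and 9.84 in the meristems, so that it too reached 7 on 1 sorted array.

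In the remaining genes with 4 or more log2 between the means, every sorted value was under 5. AT3G49190 had 4.00, 3.35 and 3.97 in sorted replicates 1, 2 and 3, against 8.24, 8.62 and 7.69 in meristem replicates 1, 2 and 3. Its sorted range (0.65 log2) was narrower than its meristem range (0.93 log2), as was the case in 4 of the 29 genes. AT4G27400 had 3.64, 2.33 and 3.82 in the sorted replicates and 7.76, 8.06 and 7.05 in the meristems. AT2G37540 had 4.72, 2.48 and 3.42 in the sorted replicates and 7.83, 7.91 and 7.12 in the meristems. In both of these, meristem replicate 3 was the lowest of the meristems and only just above the level limit.

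A middle group of 15 genes, MSRB5 among them, had differences between 3.5 and 4.5 log2 in size, 9 genes had smaller ones and 5 had larger ones. AT2G45180 had 5.47, 3.67 and 4.82 in sorted replicates 1, 2 and 3, against 9.24, 8.11 and 8.59 in meristem replicates 1, 2 and 3, and its meristem range of 1.13 log2 was the widest of the 29. AT3G17020 had 6.56, 4.13 and 5.40 in the sorted replicates and 9.23, 9.27 and 9.04 in the meristems. AT1G54890 had 6.02, 4.64 and 6.14 in the sorted replicates and 9.49, 9.16 and 9.52 in the meristems. In all 3 genes sorted replicate 2 was again the lowest array, by between 1.15 and 1.38 log2 from the next. The genes of this middle group not named so far had sorted means between 3.81 and 4.98.

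The sorted arrays differed among themselves in a way that the choice of the genes did not fix. Sorted replicate 2 held the lowest sorted value of 23 of the 29 genes (79.3%), sorted replicate 1 that of 6 genes (20.7%) and sorted replicate 3 that of none. Among the comparison genes the shares were 26.8%, 62.2% and 9.35% for sorted replicates 2, 1 and 3. Since the comparison genes are more abundant in the sort, the same was counted over 5185 other genes whose sorted mean lay in the range of the 29 (3.25 to 7.85). Their lowest value was in sorted replicate 2 for 26.2%, in replicate 1 for 54.7% and in replicate 3 for 16.1%. The 3 sorted arrays share each gene's probe set, and the counts describe these arrays without a test.

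The spread behind that pattern was wide. The sorted range was over 1 log2 in 23 of the 29 genes (79.3%), in 4.84% of the comparison genes and in 12.1% of the genes at the same sorted level. Its median was 1.5 log2 in the 29 genes, 0.34 log2 in the comparison genes and 0.48 log2 at the same sorted level. The median of sorted replicate 1 minus replicate 2 was 1.38 log2 in the 29 genes and -0.19 log2 in the comparison genes, whereas that of replicate 1 minus replicate 3 was 0.03 and -0.12 log2. In 16 genes the order was replicate 1 above 3 above 2, in 6 it was 3 above 1 above 2, and 1 gene had a tie. The SD over the sorted arrays exceeded that over the meristems in 25 of the 29 genes, and in 81.8% of the comparison genes.

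**Figure D3:**
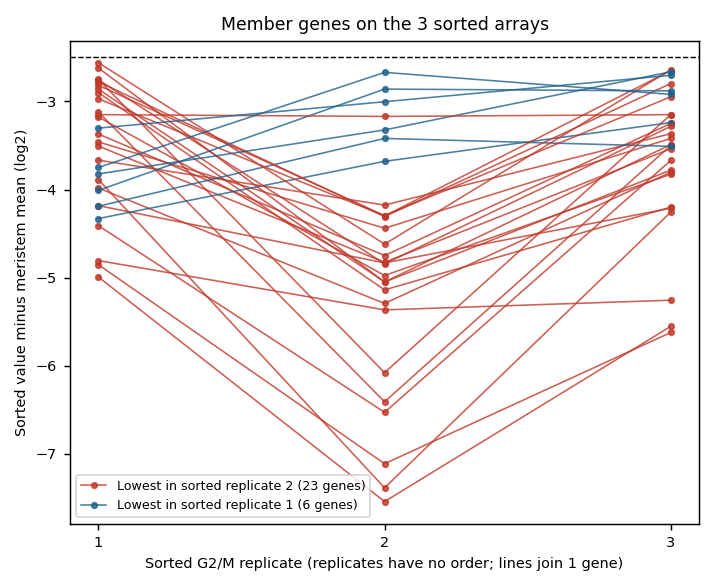
Each line is 1 of the 29 genes and gives its value on each sorted G2/M array minus its meristem mean (log2, vertical axis), with the limit of 2.5 log2 dashed. Red lines (23 genes) have their lowest point in sorted replicate 2 and blue lines (6 genes) in sorted replicate 1.

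The 6 genes with their lowest value in sorted replicate 1 were picked out after their values were seen. They are AT2G43600, AT1G29270, AT3G54400, AT5G07030, AT5G48480 and AT5G57500. AT5G07030 had 4.02, 5.17 and 5.15 in sorted replicates 1, 2 and 3, against 8.05, 7.86 and 8.18 in meristem replicates 1, 2 and 3. AT5G48480 had 4.61, 5.69 and 5.44 in the sorted replicates and 8.40, 8.31 and 8.37 in the meristems. AT2G43600 had 4.11, 4.76 and 5.20 in the sorted replicates and 8.58, 8.65 and 8.09 in the meristems. Over the 6 genes replicate 1 minus replicate 2 ran between -1.15 and -0.30 log2, with a sign that the split itself fixes.

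The narrowest sorted ranges were those of AT5G24580 (0.02 log2), AT3G06460 (0.56 log2) and AT5G57500 (0.60 log2). AT5G24580 had 4.31, 4.29 and 4.31 in sorted replicates 1, 2 and 3, against 7.41, 7.16 and 7.81 in meristem replicates 1, 2 and 3. It counts among the 23 by a margin of 0.02 log2, which is no difference at the precision of these arrays. AT5G57500 had 4.53, 4.83 and 5.13 in the sorted replicates and 7.49, 8.14 and 7.87 in the meristems, the smallest mean difference of the 29 (-3.003 log2).

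**Figure D4:**
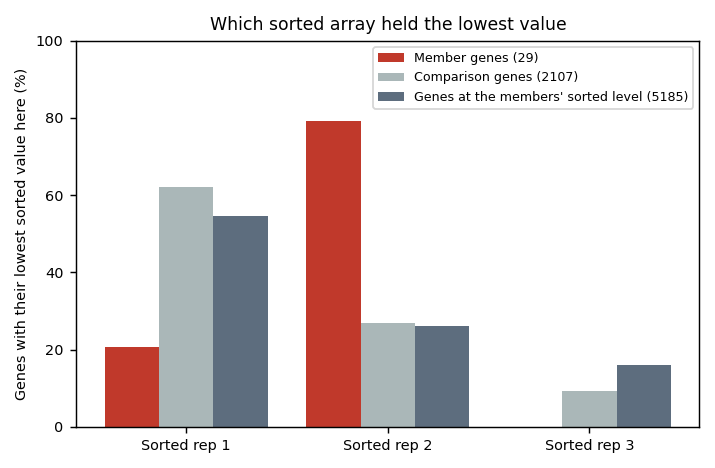
Bars give the share of genes (%) whose lowest sorted value was in sorted replicate 1, 2 or 3, for the 29 member genes (red), the 2107 comparison genes (light grey) and the 5185 other genes at the same sorted level (dark grey). The share for sorted replicate 2 is 79.3% in the members, 26.8% in the comparison genes and 26.2% at the same sorted level.

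Markers of other cells, and spiked controls, also differed between the sorted arrays. Of 6 listed root hair genes 2 were measured. These expansins, EXPA7 and EXPA18, which loosen the wall of growing hairs, stood at 7.07 and 6.67 in sorted replicate 1. On the other sorted arrays and in the meristems they were near the floor (at most 2.69 and 2.35). The root cap polygalacturonase RCPG (AT1G65570) had 4.63, 3.00 and 3.58 in sorted replicates 1, 2 and 3, against 7.38, 6.93 and 6.58 in meristem replicates 1, 2 and 3, in the order of the largest group of the 29. The cortex marker PEP (AT1G09750) had 3.42, 3.11 and 2.54 in the sorted replicates and 7.91, 7.57 and 7.14 in the meristems.

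The cortex marker CO2 (AT1G62500) averaged 3.43 ± 0.07 in sorted cells, against 4.22 ± 0.18 in meristems. JKD, a ground tissue regulator, averaged 2.80 ± 0.18 in sorted cells, against 5.09 ± 0.30 in meristems (SD, n = 3 each for both). Each of these 4 markers of the root cap and ground tissue was thus lower on every sorted array than on any meristem array. The choice named all 4 as genes to leave out, and PEP met both limits, so its difference was fixed to be large. They were 1 of 5 listed root cap genes, 2 of 2 cortex genes and 1 of 9 endodermis genes. No listed gene of the stele, phloem, xylem, stem cell niche or non-hair epidermis had a probe set named for it alone. Such genes may lie on unnamed or shared probe sets, so nothing is said here of those cells. The 12 poly-A spike-in probe sets, which follow bacterial transcripts added to the RNA, had a median of 5.92, 2.79 and 2.85 in the sorted replicates and 7.20, 6.72 and 6.43 in the meristems. They set sorted replicate 1 apart from replicates 2 and 3, while most of the 29 genes set replicate 2 apart from replicates 1 and 3. Whether cell makeup or the spike-in split has a part in the levels of the 29 was not tested.

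Without sorted replicate 1 the rule gave 32 genes, without replicate 2 it gave 29 and without replicate 3 it gave 35. Each of these sets holds the 29 genes by construction, so the number that also met the limit on the unused array is fixed at 29. The 3 and 6 further genes, chosen without replicates 1 and 3, were also below every meristem value on the unused array. They were chosen for low values on the other sorted arrays against the same meristem arrays, so nothing is read from this. Of the comparison genes, 50.9% in sorted replicate 1 and 42.4% in sorted replicate 3 were below every meristem value. Those genes were not chosen for a difference, so they are no matched background.

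In limma's fit over all 22746 probe sets, 25 of the 29 genes had an adjusted p under 0.05 and were lower in the sorted cells (Benjamini-Hochberg), where 7.06% of all probe sets were called lower. The genes were chosen on this same contrast, so nothing is read from their count. The 4 genes not called were AT1G50060, AT4G30650, AT5G54370 and AT1G62480. With the replicate number as a block, which leaves fewer degrees of freedom, 0 of the 29 were called in limma's fit, where 0.686% of all probe sets were called lower. All 29 had an unadjusted p under 0.05 in that fit, as had 21.5% of all probe sets in either direction. Without sorted replicates 1, 2 and 3 in turn, 24, 28 and 13 of the 29 were called, beside 7.17%, 5.26% and 3.3% of all probe sets called lower. Without meristem replicates 1, 2 and 3 in turn, 8, 7 and 8 were called, beside 2.91%, 2.8% and 3.36%.

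The meristem replicates varied less. The median SD over the 3 arrays was 0.83 log2 in sorted cells, against 0.28 log2 in meristems for the 29 genes. In the comparison genes it was 0.18 log2 in sorted cells, against 0.08 log2 in meristems. The highest meristem value was in replicate 2 for 15 genes of the 29 (51.7%), against 18.8% of the comparison genes, in replicate 1 for 7 and in replicate 3 for 6, with a tie in 1 gene.

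The 29 genes lay on all 5 chromosomes, by the digit in their locus codes, with 5, 5, 5, 4 and 10 genes on chromosomes 1 to 5, where the comparison genes numbered 526, 316, 438, 303 and 501. Chromosome 5 thus held 34.5% of the 29 and 23.8% of the comparison genes. One pair were direct neighbours, AT5G60520 and AT5G60530, which were both lower in the sorted cells, by different amounts. AT5G60520 had 5.29, 4.31 and 5.33 in sorted replicates 1, 2 and 3, against 8.45, 8.83 and 8.97 in meristem replicates 1, 2 and 3. Its difference of -3.77 log2 is smaller in size than the -5.86 log2 of AT5G60530 given above, and sorted replicate 2 was the lowest array for both. The pair makes up 2 of the 29 genes with another member within 3 genes (6.90%), while 0.577% of 2081 comparison genes had a member that near. The first share is a single pair counted from both sides. It also depends on the choice, which left out AT1G52050, AT1G52060 and AT1G52070 of the lectin cluster although they met both limits.

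Few other neighbours met the level limit of the choice, although a difference of 2.5 log2 could also show at levels under it. Within 3 genes on either side of the 29, 76 neighbours had a probe set of their own. Of these 19 were near the floor on all 6 arrays, where the difference is held near 0, and 14 met the level limit, the pair included. The other 12 at that level had differences between -2.41 and 0.37 log2, with a median of -0.20. Among the 76, only the 2 genes of the pair met the limit of 2.5 log2 on every sorted array. AT5G51520 had 4.26, 2.94 and 4.23 in the sorted replicates and 7.92, 7.82 and 7.56 in the meristems, and 2 of its neighbours were also low. AT5G51490 had 3.48, 3.18 and 4.36 in the sorted replicates and 6.63, 6.71 and 6.23 in the meristems. AT5G51500 had 4.78, 5.91 and 6.19 in the sorted replicates and 8.33, 7.93 and 7.85 in the meristems. For AT5G51510, which lies between AT5G51500 and AT5G51520, the difference was -0.25 log2.

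Some direct neighbours had much smaller differences. AT2G41810 had 5.91, 4.43 and 5.78 in sorted replicates 1, 2 and 3, against 9.11, 8.27 and 8.80 in meristem replicates 1, 2 and 3. Its neighbour AT2G41800 had 10.48, 10.89 and 10.74 in the sorted replicates and 10.70, 10.98 and 10.96 in the meristems, so its groups overlapped. AT4G30660, beside AT4G30650, had a difference of -1.16 log2, with each sorted value below every meristem value. For AT2G43610, beside AT2G43600, the difference was -0.21 log2, and its groups overlapped.

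**Figure D5:**
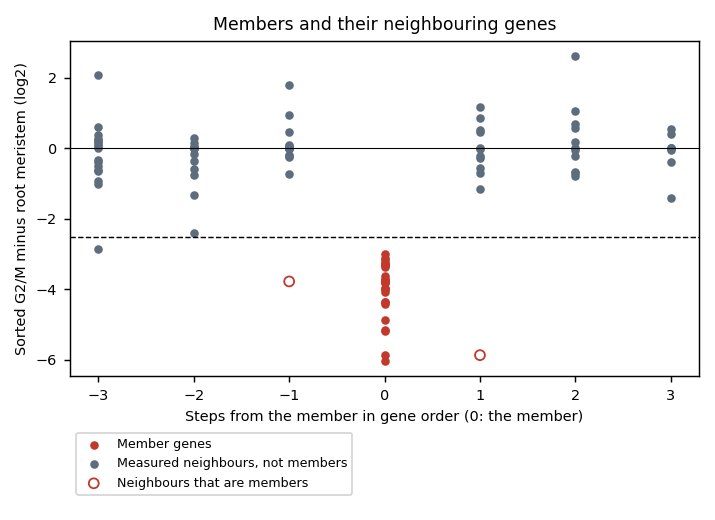
The difference between sorted G2/M cells and root meristem (log2, vertical axis) is shown for the 29 genes (red, at 0 on the horizontal axis) and for the 76 measured neighbours up to 3 steps away in gene order (grey, and red circles for neighbours that are themselves among the 29). The grey points include 19 neighbours near the floor on all 6 arrays, and the 2 red circles are AT5G60520 and AT5G60530.

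The limits of the choice cut through a continuous range. The genes just inside the limit on the difference were AT1G62480, AT3G17020 and AT1G57590, with smallest gaps of 2.56, 2.62 and 2.65 log2. Just outside it were AT1G06640, AT5G10130 and AT3G61820, with 2.48, 2.43 and 2.31 log2. At the limit on the level, AT4G27400, AT2G37540 and AT5G24580 were inside with lowest meristem values of 7.05, 7.12 and 7.16, and AT1G28400, AT2G38180 and AT2G22930 were outside with 6.88, 6.87 and 6.77. AT1G28400 had 2.93, 2.90 and 2.87 in the sorted replicates and 7.31, 6.88 and 7.18 in the meristems, with a smallest gap of 4.19 log2.

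The 10 genes left out by family or name met the same limits, so their differences (median -4.98 log2) were fixed to be large. Their lowest sorted value was in replicate 2 for 7 of the 10, against 23 of the 29. Their sorted range was over 1 log2 in 5 of the 10, against 23 of the 29, and 5 of the 10 had a value near the floor on some sorted array, against 5 of the 29. One of them, AT4G11290, was set aside as a class III peroxidase from general knowledge and not from a name in the tables; it had 4.06, 2.35 and 4.98 in the sorted replicates and 7.72, 7.36 and 8.13 in the meristems. XTH16 was near the floor on all 3 sorted arrays, as none of the 29 was. In the opposite direction, 33 of the 2010 genes at level 7 or more on all sorted arrays had every meristem value at least 2.5 log2 below their sorted mean, against 39 of 2146 in the direction described here.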

How the data were processed

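The authors' deposited log2 values were used as they are. The submitters' processing notes name GCRMA, per the labels, whose version is not given in the sources used here. In all, the table held 22810 probe sets, of which 64 controls were kept out of the fit. The platform annotation named 1 gene for 13513 probe sets and several for 503, and 8730 were unnamed here. These gave 13356 genes, with the highest-mean probe set per gene, and 13286 were matched to RefSeq (TAIR10.1), used for names and gene order only. No coordinates or sequences are given. The 29 genes, the marker list and the alternatives were chosen with earlier results of these data known. Any of the 29 could be named, with fuller values for the largest differences, the highest levels, neighbours, extremes of range and genes nearest the limits. Families were not assigned to the 29, as the tables hold no gene descriptions. Apart from AT4G11290, genes were left out by name or locus code only, so unnamed relatives of the families set aside may remain among the 29.

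Limma 3.58.1 in R 4.3.3 (lmFit and eBayes, no trend, no robust prior, no filter) compared the groups, with Benjamini-Hochberg adjustment over 22746 probe sets, after a test on simulated data. Arrays have no read depth, and 3 of them per group set the precision. The series names biological replicates, and nothing further says how they were separated. Deviations from the group means of same-numbered arrays correlated at 0.122, 0.249 and 0.106 over probe sets above the median level. Those of arrays with unlike numbers correlated at between -0.229 and 0.050. Deviations within a group cancel out, which ties these values to each other, so they do not settle whether the arrays were paired. The replicate number was therefore also fitted as a block. Alternatives changed the limits, the centring, the prior, the filter and the arrays used.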

Additional observations from a re-analysis of the deposited data

How the results depend on the processing

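The number of genes chosen was 29. It was 16 with a limit of 3 log2 on the difference, 44 with a level of at least 6 and 18 with a level of at least 8. With a limit of 2 log2 or with nothing left out by name it was 39, with AT4G11290 kept (an alternative added after the data were seen) 30, and with 1 array left out between 29 and 35. Centring the arrays gave 29 genes. None of the 29 was near the floor on all 3 sorted arrays with a margin of 0.25 or 1 log2 either, and the counts by sorted replicate 1 (16 genes highest there, 17 after centring) and of neighbouring members (2 within 1, 3 or 10 genes) moved by less than 1.5 times. Limma called 2614 probe sets, 1249 with a trended robust prior, 235 with the replicate block and between 959 and 3383 with 1 array left out, the lowest counts being those without sorted replicate 3 or any 1 meristem. Of the 29 genes 25 were called lower, 0 with the replicate block and between 7 and 28 with 1 array left out. The block and each left-out array leave fewer degrees of freedom, and with 1 array left out the counts rose in some cases and fell in others. The cause of these changes was not tested. Motif counts in promoters and hydrophobic stretches in proteins were planned and not run, since no sequences were used here.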
